A study of Homo sapiens with 18 samples.

Results

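The response of HepG2 cells, a human liver carcinoma line, to the compound labelled 6N-10CA was measured by RNA sequencing against the DMSO vehicle. The comparison takes the 3 libraries of cells given 6N-10CA at 10 µM and the 3 libraries of cells given DMSO at 0.1%, which are 6 of the 18 libraries in the series, and they were chosen by their treatment label. The name 6N-10CA joins the names of 6N and 10CA, which were each given at 10 µM in 3 libraries, and both groups serve here to show where the response to 6N-10CA differs. The remaining groups of 3 libraries each received ethanol at 0.1% or the phospholipid DLPC at 100 µM; ethanol is used as the other vehicle and DLPC enters only the shared estimate of the spread. All cells were of the same line with no genetic change named, were grown with 10% fetal bovine serum, and were held during the experiment in medium with the same share of charcoal-stripped serum, which is depleted of steroid hormones and other lipids. The length of treatment is not given in the sources used here, and neither is the vehicle that each compound was dissolved in.

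The series belongs to work on LRH-1, the nuclear receptor encoded by NR5A2, which binds phospholipids in its ligand pocket and sits on DNA as a monomer. In liver it is known for its part in bile acid synthesis from cholesterol, in the feedback loop through NR0B2 (the corepressor SHP), and in lipid and glucose metabolism. HepG2 cells keep many hepatocyte functions, among them secretion of plasma proteins, bile acid synthesis and cholesterol synthesis, and they carry an activating change in beta-catenin, so that targets of the Wnt pathway are active in them.

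Total counts ran from 28988419 to 34992442 in the 6 libraries, within the 28135967 to 34992442 of all 18, and 3 counts correspond to 0.0857 to 0.103 CPM (counts scaled to a common library size). All 16 hepatocyte markers were detected, with a summed level of 70168 to 73702 CPM with DMSO and 71253 to 77687 CPM with 6N-10CA. Of 18 markers of stromal, endothelial and blood cells, KDR, CD3E, HBB and MS4A1 had no count in any of the 6 libraries and 9 were high enough to test. The summed level of the 18 was 436 to 457 CPM with DMSO and 409 to 410 CPM with 6N-10CA, of which lysozyme (LYZ) made up 314 ± 7.83 and 278 ± 4.30 CPM (mean ± SD, n = 3); its part in the results was not tested. Values below are CPM scaled for library composition; they are not divided by transcript length and are compared only within a gene. The titles number the replicates without saying whether they are separate cultures, so p-values measure the spread between these libraries, which may be technical.

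Cells given 6N-10CA held more mRNA of SLC51A, a bile acid exporter subunit (log2 fold change 1.11), of the kininogen KNG1 (0.75), of the collagen-modifying enzyme P4HA1 (0.64) and of the electron carrier CYB5A (0.58), and less of osteopontin, SPP1 (-0.52), and of the arylsulfatase gene ARSI (-0.48). At an adjusted p under 0.05 (quasi-likelihood F test of edgeR, adjusted by Benjamini and Hochberg's method over 14797 genes), 39 genes changed, 0.264% of those tested. Of these, 21 rose (0.142%) and 18 fell (0.122%), all of them protein coding. The changes were small: 2 of the 39 passed 2-fold, 8 passed 1.5-fold, and the median size was 0.40 on the log2 scale. In every one of the 39 the 3 libraries of either group lay apart from the 3 of the other, as they did in 2189 of all tested genes (14.8%). This fixes the sign as the same in all 3 pairs of same-numbered libraries, so that sign is no further result. The median log2 fold change over all tested genes was 0.00065 after scaling.

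Over genes above 5 CPM, libraries with the same replicate number deviated together (correlations 0.33, 0.41 and 0.18; 0.096, 0.14 and 0.07 over all tested genes), and a fit with the replicate number as a block called 562 genes (3.80%), of which 249 were higher (1.68%) and 313 lower (2.12%). All 39 genes were among them with the same sign. The other 523 are given below as called with the block alone, with both adjusted p-values, and their changes are smaller, with a median of 0.21 over the 562. Leaving out 1 library lowered the count of 39 in each of the 6 fits, to between 12 without DMSO replicate 3 and 23 without 6N-10CA replicate 1. Of the 39 genes, 9 kept their call in all 18 alternative fits: SLC51A, KNG1, P4HA1, STK32C, CYB5A, PALMD and ANXA4 among the rises, SPP1 and ARSI among the falls. The other 30 lost it in at least 1.

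**Figure D1:**
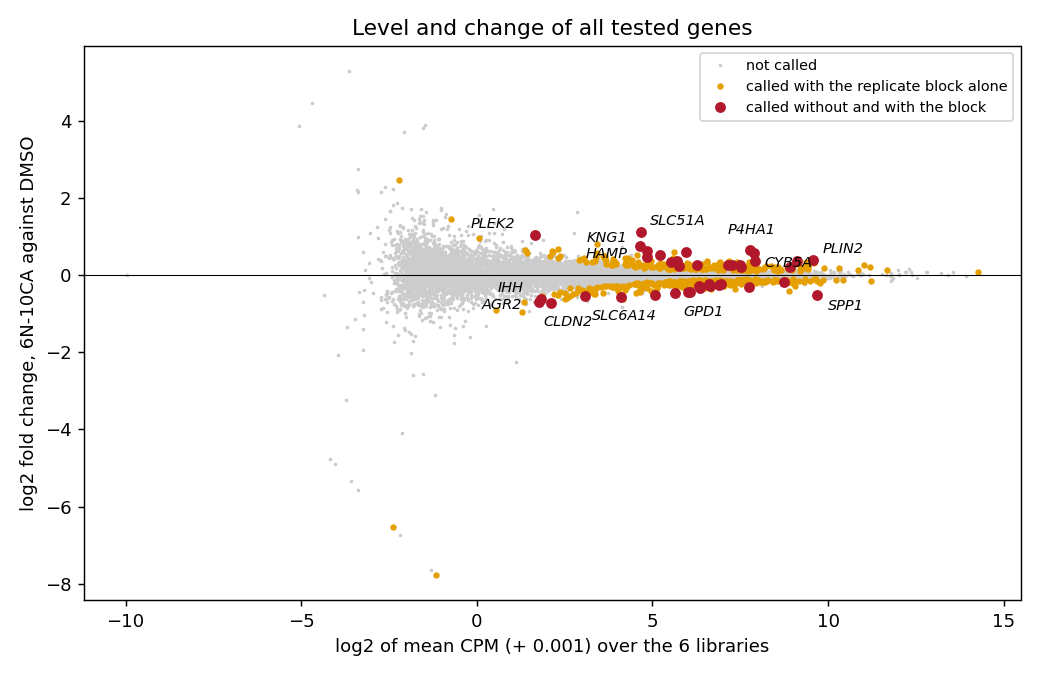
Each point is 1 of 14797 tested genes; the x axis is the log2 of its mean CPM over the 6 libraries (with 0.001 added) and the y axis its log2 fold change, 6N-10CA against DMSO. The 39 genes called without the block (red) lie within 1.11 of the zero line, above the level at which the not called genes (grey) spread widely.

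The receptor gene itself did not differ detectably. NR5A2 was at 3.97, 3.11 and 4.48 CPM in DMSO replicates 1 to 3 and at 3.25, 4.43 and 4.39 CPM with 6N-10CA, so the groups overlapped. Its log2 fold change was 0.07 (SE 0.19, 95% interval -0.32 to 0.45, adjusted p 0.954). A change within that interval is not excluded by these libraries. Of 26 measured genes of a list of known or proposed LRH-1 targets, none was called without the block, 5 were higher with it and none lower, with a median log2 fold change of 0.06. CYP7A1, which sets the rate of bile acid synthesis, was at 17.3, 15.7 and 14.9 CPM with DMSO and 24.7, 20.5 and 19.6 CPM with 6N-10CA. These 2 groups did not overlap, and the log2 fold change was 0.43 (SE 0.10; adjusted p 0.0906, and 0.000496 with the block). NR0B2 had a log2 fold change of 0.34 (adjusted p 0.455, and 0.00266 with the block), with overlapping libraries. IL1RN, the interleukin 1 receptor antagonist, was at 0.27 (adjusted p 0.449, and 0.0364 with the block) and STAR, which carries cholesterol into mitochondria, at 0.34 (0.304, and 0.04). With ethanol as the vehicle and the block, the list had 3 members higher and 2 lower, where 220 and 385 of all tested genes were.

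Bile acid transport held the largest rise of all called genes. SLC51A encodes the alpha subunit of the exporter that moves bile acids and steroids across the basolateral membrane (chromosome 3, 196211487 to 196243178). It was at 15.4, 16.2 and 16.7 CPM with DMSO and at 39.4, 32.0 and 32.4 CPM with 6N-10CA. Every 6N-10CA library lay well above every DMSO library. The rise was 1.11 on the log2 scale (SE 0.11, adjusted p 3.48e-05), and it was 0.97 to 1.17 over the 18 alternatives. Its partner SLC51B, the beta subunit, was at 3.56, 4.16 and 3.07 CPM with DMSO and 6.43, 4.996 and 4.91 CPM with 6N-10CA, without overlap. The log2 fold change of SLC51B was 0.59 (SE 0.14; adjusted p 0.0892, and 0.0198 with the block). Both subunits are needed for transport. They were the only 2 of the 10 measured transport genes called with the block, and the median of the 10 was 0.02 (-0.03 with ethanol as the vehicle). With ethanol as the vehicle and the block, SLC51A was the 1 higher member and 1 other member was lower. SLC51B was at 4.57 ± 0.217 CPM with ethanol and was not called higher in that fit. SLC51A overlaps PCYT1A on the opposite strand; whether counting used strand is not given in the sources used here, and PCYT1A had a log2 fold change of -0.02. The list of bile acid synthesis and its FGF19 feedback (15 measured) had none called without the block and 4 higher with it: CYP7A1 and NR0B2, KLB, the coreceptor of FGF19 (log2 fold change 0.21; adjusted p 0.251, and 0.0247), and HSD17B4, a peroxisomal enzyme of side chain shortening (0.14; 0.212, and 0.0332). Against ethanol with the block that list had 4 higher and 2 lower, with a median of -0.01 in place of 0.06.

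Among secreted liver proteins, single genes were called. KNG1, the kininogen from which bradykinin is cut (chromosome 3, 186717276 to 186744410), was at 17.8, 19.4 and 19.1 CPM with DMSO and 31.4, 31.4 and 32.0 CPM with 6N-10CA. It rose by 0.75 on the log2 scale (SE 0.09, adjusted p 0.00014). No other of the 22 measured coagulation and kinin genes was called without the block, and with it PROZ, the vitamin K-dependent protein Z, was at -0.28 (adjusted p 0.417, and 0.0339). HAMP, the iron hormone hepcidin (chromosome 19, 35280716 to 35285143), was at 22.7, 23.9 and 20.9 CPM with DMSO and 36.8, 35.1 and 31.9 CPM with 6N-10CA. The groups did not overlap, and it rose by 0.62 (SE 0.13, adjusted p 0.0419). That call was lost without any 1 of the 6 libraries (0.57 to 0.68, adjusted p 0.0855 to 0.229) and with ethanol as the vehicle (0.37, adjusted p 0.264). ORM1, the acute phase protein orosomucoid, went from 452 ± 6.35 to 519 ± 14.7 CPM (log2 fold change 0.20, adjusted p 0.0295), and lost the call in 5 of the 6 fits without 1 library (adjusted p up to 0.129) and against ethanol (0.15, adjusted p 0.103). Its near-identical neighbour ORM2, between which reads can be split, was at 0.16 (adjusted p 0.13, and 0.019 with the block). Among the 17 measured acute phase genes, ITIH3 was higher (0.20; 0.561, and 0.00639) and haptoglobin (HP) lower (-0.17; 0.38, and 0.00912) with the block alone.

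Hepcidin transcription is known to answer to BMP-SMAD and to STAT3 signals. ID2, a helix-loop-helix inhibitor and a target of BMP signals, went from 209 ± 15.7 to 271 ± 15.7 CPM, with 199, 227 and 201 against 263, 289 and 262 CPM by library. It rose by 0.37 (SE 0.06, adjusted p 0.00948), and the call was lost without DMSO replicate 1 or 3, without 6N-10CA replicate 2 and with ethanol as the vehicle (0.26, adjusted p 0.0732). The BMP targets ID1, SMAD7 and SMAD6 were not called in either fit, with log2 fold changes of 0.01, 0.05 and 0.16. In the list of 24 measured iron and BMP-SMAD genes, 2 were higher and none lower without the block; with it there were 4 higher and 2 lower, and the median was 0.02. With the block alone, the iron importer SLC39A14 was at -0.21 (adjusted p 0.293, and 0.0132), the BMP pseudoreceptor BAMBI at -0.18 (0.293, and 0.0288), ceruloplasmin (CP) at 0.14 (0.804, and 0.0221) and transferrin (TF) at 0.08 (0.785, and 0.0434). With ethanol as the vehicle no member of the list was called without the block.

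Hypoxia-responsive genes had mostly positive log2 fold changes. P4HA1, a catalytic subunit of the prolyl 4-hydroxylase that matures collagen (chromosome 10, 73007217 to 73096974), was at 183, 158 and 169.5 CPM with DMSO and 265, 260.3 and 269 CPM with 6N-10CA. It rose by 0.64 (SE 0.09, adjusted p 0.00105) and was the 1 member of 26 called without the block. Positive log2 fold changes were seen in 24 of the 26 and in 7430 of all 14797 tested genes. The median of the 26 was 0.15 where the median of all tested genes was 0.00065. With the block 11 of the 26 were higher and none lower. They were P4HA1 and P4HA2 (0.21; adjusted p 0.316, and 0.00117 with the block), the stress protein gene NDRG1 (0.33; 0.442, and 0.000389), the oxygen sensor EGLN3 (0.41; 0.562, and 0.00174), the pyruvate dehydrogenase kinase PDK1 (0.27; 0.117, and 0.0057), the mitophagy receptors BNIP3 (0.16; 0.631, and 0.0134) and BNIP3L (0.17; 0.561, and 0.00662), LDHA (0.14; 0.163, and 0.00662), PFKFB4 (0.21; 0.736, and 0.0205), EPO (0.34; 0.355, and 0.0205) and HILPDA (0.27; 0.237, and 0.0318). Members that often mark hypoxia were not called in either fit: CA9 was at -0.20, VEGFA at 0.06 and SLC2A1 at -0.07. The count with the block was 4, 4 and 7 higher when replicate number 1, 2 or 3 was left out, with 1 lower in the first case, and 7 higher and 1 lower with ethanol as the vehicle. Over all tested genes, 113, 73 and 104 were higher in those fits, and 220 with ethanol. SLC2A14, a glucose transporter gene, rose by 0.47 (adjusted p 0.0321), from 26.4, 23.7 and 22.6 CPM to 34.4, 31.2 and 35.4 CPM, and lost the call in 4 of the 6 fits without 1 library (adjusted p up to 0.203) and against ethanol (0.37, adjusted p 0.0795). It is a near copy of SLC2A3, with which it can share reads and which was at 0.32 (adjusted p 0.0674, and 0.00012 with the block).

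The promoters of HAMP, P4HA1 and KNG1 are shown because these genes rose and each holds a match to a motif of the signals just described. They are the 250 bases before the RefSeq start on GRCh38.p14: chr19:35282278-35282527 on the plus strand for HAMP, chr10:73096867-73097116 on the minus strand for P4HA1, and chr3:186717109-186717358 on the plus strand for KNG1. Capitals mark the matches to GGCGCC (BMP-responsive element), TTCNNNGAA (STAT element) and ACGTG or its reverse complement CACGT (core of the hypoxia response element).
HAMP: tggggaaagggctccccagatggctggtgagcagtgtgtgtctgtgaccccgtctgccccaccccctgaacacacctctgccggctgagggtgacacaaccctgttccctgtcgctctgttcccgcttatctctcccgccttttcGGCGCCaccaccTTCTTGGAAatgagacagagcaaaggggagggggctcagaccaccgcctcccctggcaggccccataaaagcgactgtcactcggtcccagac
P4HA1: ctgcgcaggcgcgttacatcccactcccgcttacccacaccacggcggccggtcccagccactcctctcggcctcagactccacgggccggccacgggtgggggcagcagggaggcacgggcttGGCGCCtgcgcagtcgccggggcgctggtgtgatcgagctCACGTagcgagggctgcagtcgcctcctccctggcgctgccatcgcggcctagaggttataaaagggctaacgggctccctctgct
KNG1: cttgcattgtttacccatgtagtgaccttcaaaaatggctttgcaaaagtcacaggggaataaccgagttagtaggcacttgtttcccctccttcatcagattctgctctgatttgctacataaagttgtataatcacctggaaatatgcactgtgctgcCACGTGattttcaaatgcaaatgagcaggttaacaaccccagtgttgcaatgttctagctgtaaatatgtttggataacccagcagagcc
In HAMP the match to GGCGCC begins 105 bases and the STAT match 93 bases before the start. In P4HA1 GGCGCC begins at -126 and CACGT at -86. KNG1 carries ACGTG in both orientations, overlapping in the palindrome CACGTG at -90. A match of letters alone does not tell a hypoxia response element from another element with the same letters. The 5 motifs searched, on both strands, were these 3, CAAGGTCA (LRH-1 monomer element) and CTTTGAT (TCF/LEF element), in windows from 250 bases before to 50 bases after the start; each motif was counted on its own, whether or not its matches overlapped those of another, and ACGTG overlaps its reverse complement in KNG1. RefSeq promoters were found by symbol for all 21 genes that rose and 16 of the 18 that fell. A gene was counted where any of its promoters held a match, while the share of all 35116 promoters counts each promoter singly. ACGTG was present in 12 of 21 (57.1%) and 2 of 16 (12.5%), against 31.6% of the 10544 tested genes with a promoter and 21.4% of all 35116 promoters. GGCGCC was present in 12 of 21 (57.1%) and 1 of 16 (6.25%), against 35.5% and 19.2%. The promoters of the genes that rose had a median GC content of 68.3% and those of the genes that fell 61.3%, against 64.3% in tested genes; the part of base composition in these shares was not tested. Of the genes called with the block, 188 of the 249 higher and 237 of the 313 lower had a promoter. Among these, ACGTG was in 31.9% of the higher and 33.8% of the lower, and GGCGCC in 42.0% and 27.4%. TTCNNNGAA was in 2 of 21 and 1 of 16 (8.63% of tested genes, 7.66% of all promoters). CAAGGTCA was in none of either set (1.15% and 1.28%), and CTTTGAT likewise in none (2.20% and 2.62%).

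**Figure D2:**
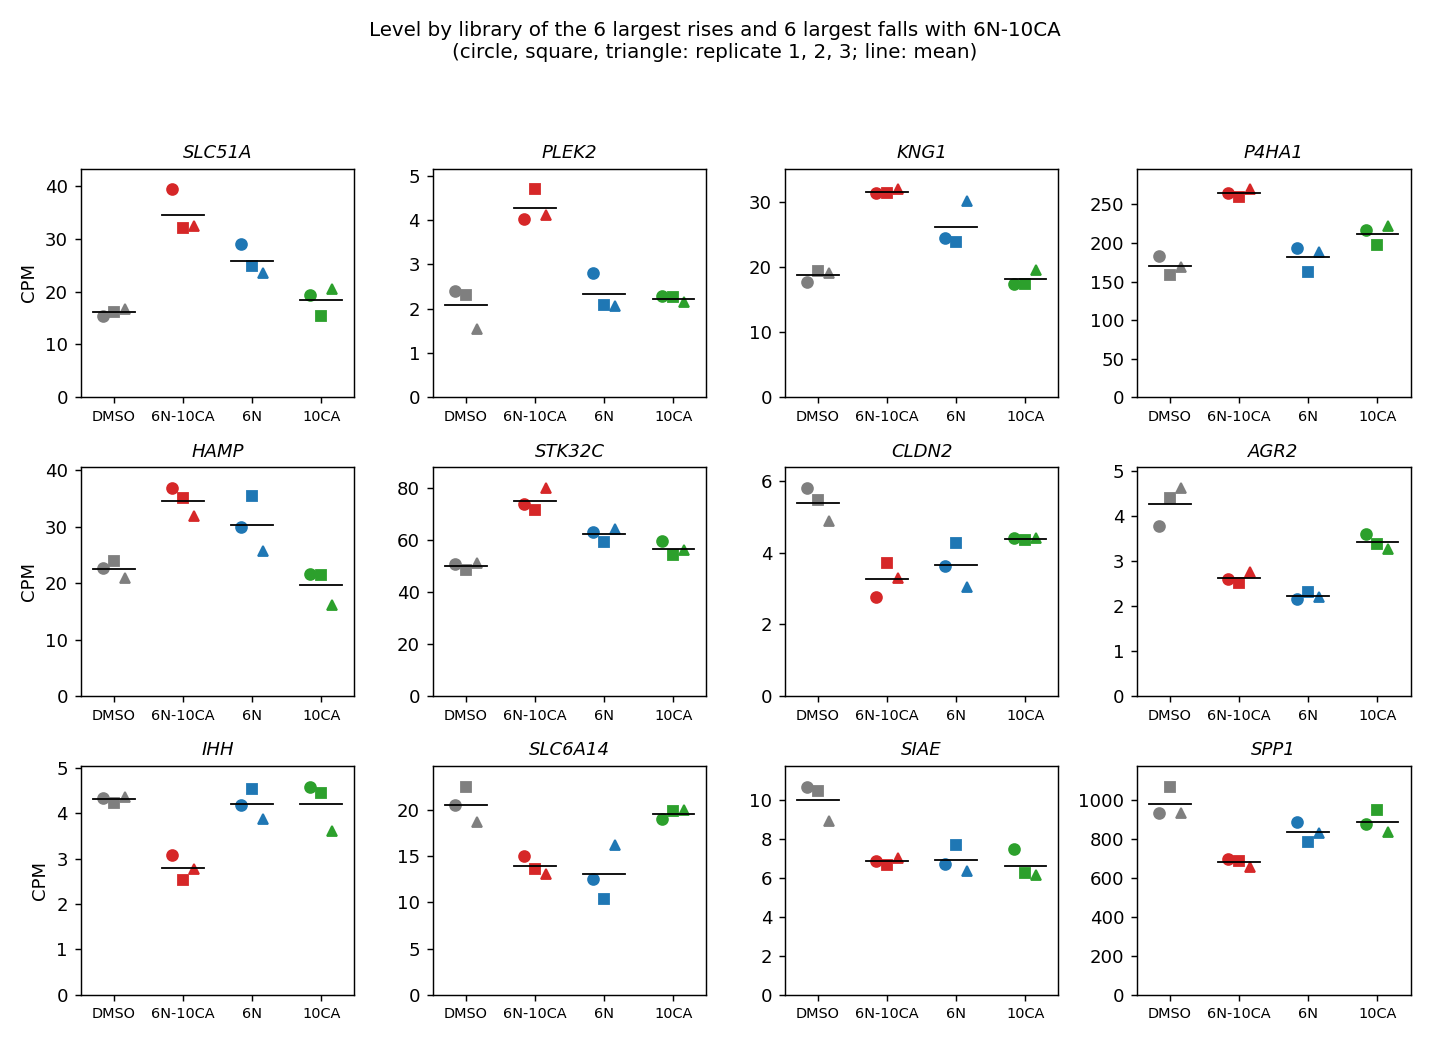
Level in CPM (y axis, from 0) of the 6 largest rises and 6 largest falls among the genes called for 6N-10CA against DMSO, by library in the 4 groups on the x axis; the line is the mean of 3. SLC51A runs from 15.4 to 16.7 CPM with DMSO and from 32.0 to 39.4 CPM with 6N-10CA, and in all 12 genes the DMSO and 6N-10CA libraries do not overlap.

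Of the lipid droplet and glycerolipid synthesis genes, PLIN2 and AGPAT2 rose and GPD1 fell, and the medians of these lists were 0.05 and -0.0021. PLIN2, the coat protein of lipid droplets, was at 639, 624 and 721 CPM with DMSO and 909, 804 and 898 CPM with 6N-10CA. It rose by 0.40 (SE 0.08, adjusted p 0.0396) without overlap of the libraries. AGPAT2, which makes phosphatidic acid from lysophosphatidic acid, was at 31.0, 29.9 and 30.0 CPM with DMSO and 49.8, 41.3 and 39.2 CPM with 6N-10CA, a rise of 0.52 (SE 0.10, adjusted p 0.0345). Each of these genes lost its call in 5 of the 6 fits without 1 library, with adjusted p-values up to 0.20 for PLIN2 and 0.156 for AGPAT2, and against ethanol (0.25, adjusted p 0.234, and 0.36, adjusted p 0.154). GPD1, which makes glycerol-3-phosphate, fell by 0.44 (SE 0.08, adjusted p 0.0152), from 77.9, 80.1 and 75.5 CPM to 53.1, 60.4 and 58.3 CPM. Its call was lost in 5 of the 6 fits without 1 library (adjusted p up to 0.0805) and held against ethanol. Of 16 glycerolipid synthesis genes measured, AGPAT2 and GPD1 were called without the block, and with it DGAT2, the last step of triglyceride synthesis, was added at 0.13 (adjusted p 0.366, and 0.0262). Of 16 lipid droplet genes, PLIN2 was called without the block; with it HILPDA was higher and CIDEB, a droplet fusion protein, lower (-0.14; 0.151, and 0.0178). ACADM, the medium-chain acyl-CoA dehydrogenase, rose by 0.23 (adjusted p 0.0419) and lost the call without any 1 of the 6 libraries. It was the 1 of 25 fatty acid oxidation and PPAR alpha targets called without the block, and 5 were higher with it, among them the transcription factor gene CREB3L3 (0.36; adjusted p 0.139, and 8.52e-05), ACSL1 (0.26; 0.131, and 0.00174), CPT2 (0.22; 0.214, and 0.00602) and FABP1 (0.17; 0.746, and 0.04). Over all tested genes, 1.68% were higher with the block. The count of 5 was 3, 2 and 3 when replicate number 1, 2 or 3 was left out, and 4 with ethanol as the vehicle.

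Sterol and fatty acid synthesis genes were not called without the block and had mostly positive log2 fold changes. Of 27 cholesterol synthesis and uptake genes, none passed without the block, 9 were higher with it and none lower, 24 had a positive log2 fold change and the median was 0.11. ACAT2 was at 0.22 (adjusted p 0.101, and 0.000324 with the block), LSS at 0.22 (0.16, and 0.00245), FDFT1 at 0.21 (0.0837, and 0.00305) and HMGCS1 at 0.24 (0.13, and 0.00749). The count of 9 was 5, 5 and 2 when replicate number 1, 2 or 3 was left out, and 7 with ethanol as the vehicle. Over all tested genes, 113, 73 and 104 were higher in those fits, and 220 with ethanol. Of 17 fatty acid synthesis genes 5 were higher and 1 lower with the block, with a median of 0.12 (0.06 against ethanol). The desaturases FADS1 and FADS2 were both at 0.19 (adjusted p 0.0837 and 0.244, and 0.000454 and 0.00516 with the block), and ACSS2, which makes acetyl-CoA from acetate, was at 0.26 (0.234, and 0.00205). Leaving out number 1, 2 or 3 gave 6, 2 and 1 higher. Of 21 lipoprotein genes 5 were higher with the block and none lower, with a median of 0.01: LCAT (0.23; adjusted p 0.117, and 0.00174), ANGPTL8 (0.31; 0.159, and 0.00379), PLTP (0.21; 0.132, and 0.0101), LIPG (0.38; 0.397, and 0.0112) and APOC3 (0.19; 0.707, and 0.0132). Against ethanol with the block there were 3 higher and 3 lower.

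CYB5A, the cytochrome that passes electrons to cytochrome P450 enzymes and fatty acid desaturases, was at 195, 184 and 190.3 CPM with DMSO and 296, 274 and 281 CPM with 6N-10CA. It rose by 0.58 (SE 0.06, adjusted p 3.48e-05). Of 23 xenobiotic metabolism genes it alone was called without the block, and with it 6 were higher and 2 lower. Over all tested genes, 1.68% were higher and 2.12% lower with the block. Leaving out replicate number 1, 2 or 3 gave 2, 4 and 2 higher members, and 1 lower each time. Against ethanol with the block, 6 were higher and 3 lower. POR, the other electron donor of P450 enzymes, was at 0.20 (adjusted p 0.13, and 0.00231 with the block), ALAS1, the first step of heme synthesis, at 0.19 (0.159, and 0.00604), CYP3A7 at 0.57 (0.0674, and 0.00985), CYP3A5 at 0.45 (0.118, and 0.0205) and GSTA2 at 0.27 (0.16, and 0.0316). The drug exporter ABCB1 was at -0.27 (0.0837, and 0.00341) and the estrogen sulfotransferase SULT1E1 at -0.34 (0.068, and 0.00418). CYP3A7 and CYP3A5, and GSTA2 with its relatives, are similar in sequence and can share reads.

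Of the remaining rises, PLEK2, a pleckstrin that binds membrane phosphoinositides and actin structures, was at 2.40, 2.30 and 1.54 CPM with DMSO and 4.02, 4.69 and 4.12 CPM with 6N-10CA. It rose by 1.04 (SE 0.17, adjusted p 0.00884), and the call was lost without DMSO replicate 3 (0.87, adjusted p 0.0605) or without 6N-10CA replicate 2 (adjusted p 0.0593). STK32C, a serine/threonine kinase gene, was at 50.7, 48.3 and 51.0 CPM with DMSO and 73.8, 71.3 and 79.8 CPM with 6N-10CA, a rise of 0.58 (SE 0.05, adjusted p 2.1e-05). That was the smallest p-value of the comparison. ANXA4, a calcium-dependent phospholipid-binding protein, rose by 0.36 (adjusted p 7.88e-05) from 487 ± 14.0 to 624 ± 14.9 CPM, PALMD by 0.37 (0.00184) and the microtubule-associated protein gene MAP1B by 0.34 (0.00542). The other 6 rises were of 0.21 to 0.27: CDK5RAP2, a centrosome protein (adjusted p 0.0191), TCAF1, an ion channel regulator (0.00955), SLC25A33, the mitochondrial pyrimidine nucleotide carrier (0.0152), the heterochromatin protein gene CBX5 (0.00233) and the Golgi GTPase gene RAB6A (0.0455), with ACADM above. CBX5 and MAP1B kept the call without any 1 library, and CDK5RAP2, TCAF1, SLC25A33 and RAB6A lost it in 3 to 6 of the 6 fits. Against ethanol CDK5RAP2 was at 0.17 (adjusted p 0.156), CBX5 at 0.17 (0.0524), ACADM at 0.19 (0.0886) and RAB6A at 0.09 (0.514).

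Among the falls, SPP1, the secreted phosphoprotein osteopontin (chromosome 4, 87975650 to 87983426), was at 933, 1066 and 935 CPM with DMSO and 699, 688 and 654 CPM with 6N-10CA. All 3 treated libraries lay below all 3 vehicle libraries. It fell by 0.52 (SE 0.06, adjusted p 7.12e-05). ARSI, an arylsulfatase gene, went from 61.9, 59.2 and 52.5 CPM to 42.1, 40.8 and 42.1 CPM and fell by 0.48 (SE 0.06, adjusted p 0.000352). CLDN2, a pore-forming claudin of tight junctions, was lower, with 5.79, 5.48 and 4.87 CPM against 2.76, 3.70 and 3.29 CPM. It fell by 0.72 (SE 0.14, adjusted p 0.0353), a call lost without any 1 of the 6 libraries (adjusted p 0.0537 to 0.143) and against ethanol (-0.60, adjusted p 0.0732). No other of 20 tight junction genes was called in either fit. CLDN2 overlaps MORC4 on the opposite strand, which had a log2 fold change of 0.01. IHH, the hedgehog ligand of the gut and cartilage, was at 4.34, 4.23 and 4.35 CPM with DMSO and 3.08, 2.54 and 2.78 CPM with 6N-10CA. It fell by 0.63 (SE 0.13, adjusted p 0.0419), the call was lost without any 1 of the 6 libraries (adjusted p 0.0561 to 0.176), and against ethanol it was at -0.29 (adjusted p 0.454). The other 10 measured hedgehog pathway genes were not called in either fit.

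AGR2, a protein disulfide isomerase of the endoplasmic reticulum, was at 3.76, 4.39 and 4.61 CPM with DMSO and 2.59, 2.51 and 2.74 CPM with 6N-10CA. It fell by 0.70 (SE 0.12, adjusted p 0.0152) and lost the call in 5 of the 6 fits without 1 library (adjusted p up to 0.10). Genes of protein folding in that compartment had mostly negative log2 fold changes: of 23 measured, 1 was lower without the block, 11 were lower and none higher with it, 21 had a negative log2 fold change and the median was -0.13. Of all 14797 tested genes, 7366 had a negative log2 fold change. DNAJB9, a cochaperone that holds back the sensor IRE1, was at -0.40 (adjusted p 0.449, and 0.00561 with the block), the isomerase PDIA4 at -0.13 (0.104, and 0.00561), the transcription factor XBP1 at -0.17 (0.116, and 0.0057), HERPUD1 at -0.24 (0.502, and 0.0086) and the chaperone HSPA5 at -0.13 (0.482, and 0.0159). HSP90B1 was at 0.02 and was not called. The count of 11 was 6, 1 and 4 when replicate number 1, 2 or 3 was left out, and 6 with ethanol as the vehicle. Over all tested genes, 156, 40 and 86 were lower in those fits, and 385 with ethanol. WFS1, wolframin of the same compartment, fell by 0.27 (adjusted p 0.0191; 109 ± 1.72 to 90.5 ± 4.84 CPM), a call lost in 5 of the 6 fits without 1 library.

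Targets of Wnt and beta-catenin signals also had mostly negative values, 15 of the 20 measured. Of these, SPP1 and CLDN2 were lower without the block, 8 were lower and 1 higher with it, and the median was -0.12. The feedback inhibitors NOTUM (-0.17; adjusted p 0.611, and 0.0189 with the block), APCDD1 (-0.29; 0.302, and 0.0261), ZNRF3 (-0.36; 0.191, and 0.0328), NKD1 (-0.14; 0.382, and 0.0345) and DKK1 (-0.21; 0.561, and 0.0414) were lower with the block, as was BAMBI, and the transcription factor TBX3 was higher (0.22; 0.115, and 0.0159). AXIN2, a common readout of the pathway, was at -0.01 and GLUL at -0.01, and neither was called. With ethanol as the vehicle and the block, 7 were lower and none higher, where 385 of all tested genes were lower. Leaving out number 1, 2 or 3 left 3, 2 and 3 lower, where 156, 40 and 86 of all tested genes were.

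**Figure D3:**
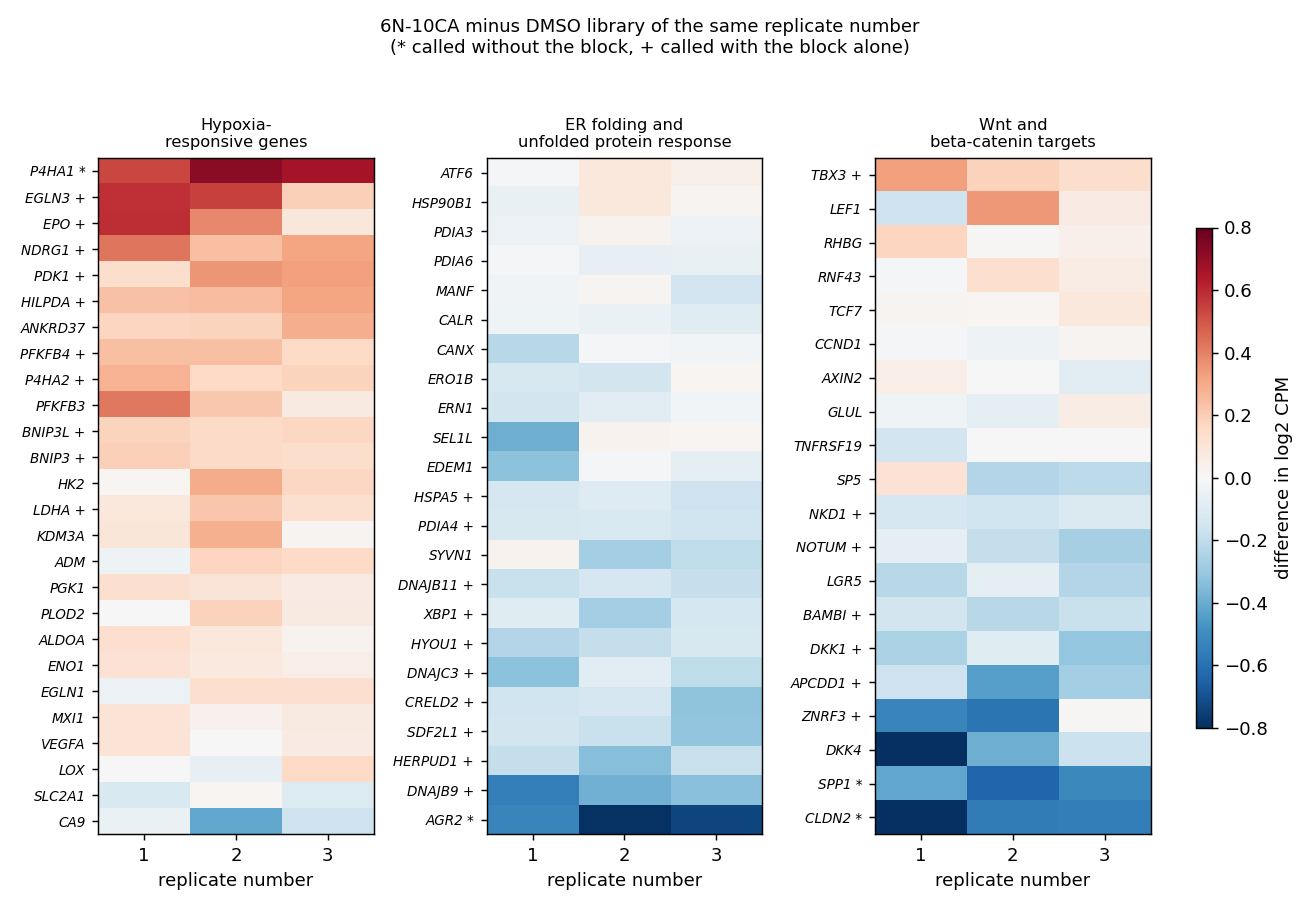
Difference in log2 CPM between the 6N-10CA and the DMSO library of the same replicate number (columns 1 to 3), for every measured gene of 3 lists; a star marks genes called without the block and a plus those called with it alone, and colours stop at 0.8 on either side. The hypoxia list has 24 of 26 positive log2 fold changes, and the folding list 21 of 23 and the Wnt list 15 of 20 negative ones.

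The other falls were of genes with varied roles. SLC6A14, a carrier of neutral and basic amino acids, was at 20.5, 22.4 and 18.7 CPM with DMSO and 15.0, 13.6 and 13.04 CPM with 6N-10CA and fell by 0.57 (SE 0.11, adjusted p 0.0332). That call was lost without any 1 of the 6 libraries (adjusted p 0.0523 to 0.178). SLC38A5, a glutamine carrier, fell by 0.28 (adjusted p 0.0362; 88.1 ± 3.16 to 72.6 ± 1.61 CPM). Amino acid carriers were not examined as a list; those in the list of ATF4 targets that were called with the block alone had opposite signs, SLC1A5 at -0.18 (0.0868, and 0.00561) and SLC7A5 at 0.14 (0.309, and 0.019). SIAE, a sialic acid esterase, fell by 0.55 (adjusted p 0.0433) from 10.7, 10.46 and 8.96 CPM to 6.88, 6.69 and 7.03 CPM. Against ethanol SIAE was at -0.06 (adjusted p 0.931), and its call was also lost without any 1 of the 6 libraries. HEPN1 fell by 0.52 (adjusted p 0.0104), from 41.7, 37.2 and 40.5 CPM to 30.5, 25.6 and 27.1 CPM. It lies within HEPACAM on the opposite strand, which was at -0.26 (0.304, and 0.00845 with the block), so reads of the pair cannot be told apart without strand. PLCXD1, in the region shared by the X and Y chromosomes, fell by 0.45 (adjusted p 0.0419), from 64.1, 82.9 and 75.7 CPM to 54.7, 52.1 and 56.5 CPM. The scavenger receptor gene SSC4D fell by 0.33 (0.00105) and PGC, a pepsinogen, by 0.32 (0.0455). C16orf70 fell by 0.25 (adjusted p 0.0144), the dipeptidase gene DPEP1 by 0.24 (0.0419), CNNM3 by 0.22 (0.0152) and CNP, a nucleotide phosphodiesterase gene, by 0.18 (0.0419). Of the genes in this paragraph SSC4D alone was called in all 6 fits without 1 library, and CNNM3 was not called against ethanol (-0.15, adjusted p 0.104).

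Of the genes called with the block alone, those with the largest changes, a mean of at least 1 CPM in at least 1 of the groups and no overlap of libraries were the following. PCK1, the gluconeogenic enzyme, was at 9.38, 5.15 and 8.67 CPM with DMSO and 18.4, 9.40 and 12.9 CPM with 6N-10CA, a log2 fold change of 0.80 (adjusted p 0.434, and 4.93e-05 with the block). Each treated library was above the vehicle library of its own number, and the lowest treated value lay just above the highest vehicle value. TNNI2, a troponin gene, was at 0.59 (0.116, and 9.53e-07), DNAJC28 at 0.97 (0.116, and 0.0303) and MID1, a ubiquitin ligase, at 0.66 (0.117, and 0.0399). DNAJC28 was low, at 0.702 ± 0.197 CPM with DMSO and 1.38 ± 0.273 CPM with 6N-10CA. CARF was at 0.67 (0.0837, and 0.00733), C2orf76 at 0.61 (0.19, and 0.0342), CLUL1 at 0.58 (0.303, and 0.0497) and SLC51B at the value above. On the lower side PLAU, the urokinase plasminogen activator, was at 2.92, 3.93 and 2.88 CPM with DMSO and 1.71, 2.09 and 1.20 CPM with 6N-10CA (-0.95; 0.0986, and 0.002). The other 7 were the somatostatin receptor gene SSTR1 (-0.91; 0.156, and 0.0489), MBOAT4, the ghrelin acyltransferase (-0.69; 0.117, and 0.0146), the lectin gene MBL2 (-0.63; 0.161, and 0.0229), SLC5A11 (-0.61; 0.101, and 0.0132), TADA2B (-0.61; 0.16, and 0.0293), AC083899.3 (-0.55; 0.159, and 0.0356) and the troponin gene TNNT1 (-0.52; 0.371, and 0.0276). TADA2B was at 21.5 ± 4.09 CPM with DMSO and 14.1 ± 1.82 CPM with 6N-10CA. With ethanol it was lower still, at 11.8 ± 2.96 CPM. In replicate number 3 it was at 16.9 CPM with DMSO and 16.2 CPM with 6N-10CA.

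**Figure D4:**
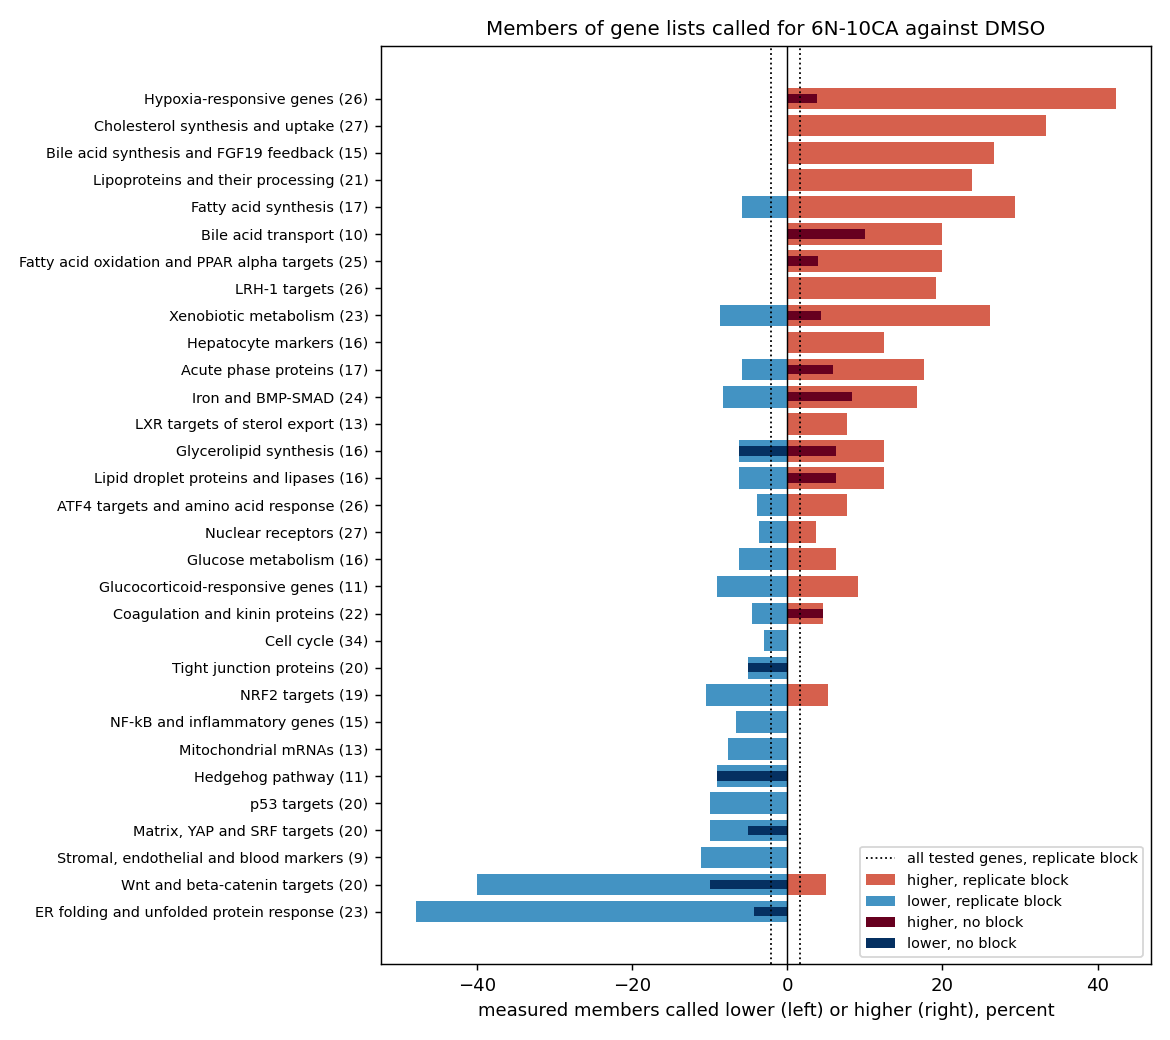
Share of the measured members (number in brackets) of each gene list called higher (right) or lower (left) for 6N-10CA against DMSO, with the replicate block (wide bars) and without it (narrow bars); the dotted lines mark the shares over all tested genes with the block, 1.68% higher and 2.12% lower. Hypoxia-responsive genes (11 of 26 higher) and the folding list (11 of 23 lower) have the longest bars on either side.

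The same libraries were set against 6N and 10CA at the same dose. These comparisons share the 6N-10CA libraries with the one above, so they are not independent of it. Against 6N, 242 genes differed: 166 were higher with 6N-10CA (1.12%) and 76 lower (0.514%), and with the block 577 were higher (3.90%). Against 10CA, 34 differed: 29 were higher (0.196%) and 5 lower (0.0338%), and with the block 207 were higher (1.40%). Of the 39 genes called against DMSO, 15 differed from 6N and 13 from 10CA, and 33 and 38 of them had the same sign in those comparisons as against DMSO.

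Of the 39 genes called against DMSO, those higher with 6N-10CA than with either named compound were PLEK2 (0.88 against 6N, adjusted p 0.00679; 0.94 against 10CA, adjusted p 0.016), STK32C (0.27, 0.00851; 0.41, 0.00131), PALMD (0.31, 0.00212; 0.33, 0.00682) and ANXA4 (0.16, 0.0402; 0.26, 0.00394). PLEK2 was at 2.32 ± 0.425 CPM with 6N and 2.22 ± 0.0745 CPM with 10CA, near the 2.08 ± 0.472 CPM of DMSO. SPP1 was lower than with either, by -0.30 against 6N (adjusted p 0.0067) and -0.38 against 10CA (0.00394). SLC51A, KNG1 and HAMP differed from 10CA by 0.91, 0.80 and 0.81 (adjusted p 0.000768, 0.000325 and 0.00528). From 6N the same genes differed by 0.42 (95% interval 0.20 to 0.65, adjusted p 0.056, and 0.00141 with the block), 0.27 (0.09 to 0.45, adjusted p 0.128, and 0.011) and 0.19 (-0.07 to 0.45, adjusted p 0.516). ID2 and ORM1 were likewise higher than with 10CA (0.36 and 0.21, adjusted p 0.0109 and 0.0182), while against 6N they were at -0.01 and -0.07 and not called.

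P4HA1 was higher than with 6N (0.55, adjusted p 0.00109) and at 0.32 against 10CA (95% interval 0.14 to 0.50, adjusted p 0.17, and 0.000162 with the block). AGPAT2 and PLIN2 were also higher than with 6N (0.53 and 0.38, adjusted p 0.00657 and 0.0135), and against 10CA at 0.34 and 0.20 (adjusted p 0.273 and 0.476, and 0.00544 and 0.000859 with the block). MAP1B had the smallest p-value of the 39 against 6N (0.60, adjusted p 7.79e-07), with 33.6 CPM under 6N, 40.3 under DMSO and 51.0 under 6N-10CA. GPD1, IHH, PLCXD1 and SLC38A5 were lower than with 6N (-0.48, -0.59, -0.45 and -0.30, adjusted p 0.0015, 0.0218, 0.0121 and 0.00547). CYB5A stood between the compounds: 284 ± 11.5 CPM with 6N-10CA, 335 CPM with 6N (-0.24, adjusted p 0.0338) and 227 CPM with 10CA (0.32, adjusted p 0.0148). SIAE did not differ detectably from either, at -0.01 and 0.05 (95% intervals -0.26 to 0.23 and -0.20 to 0.29).

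Lipid synthesis genes were higher with 6N-10CA than with 6N. In the cholesterol list 24 of 27 members were higher and none lower, with a median difference of 0.52, and of 17 fatty acid synthesis genes 13 were higher and none lower, with a median of 0.63. HMGCS1 was at 170.5 CPM with 6N, 307 with DMSO and 362 with 6N-10CA, a difference from 6N of 1.09 (adjusted p 2.52e-09), and FADS2 at 289.9, 566 and 644 CPM (1.15, adjusted p 1.31e-09). FABP1, the fatty acid binding protein, was at 566 CPM with 6N, 882 with DMSO and 993 with 6N-10CA (0.81 against 6N, adjusted p 0.00275). Against 10CA, 5 cholesterol genes and 2 fatty acid synthesis genes were higher, 15 and 6 with the block, with medians of 0.19 and 0.10. Of 26 hypoxia-responsive genes, 2 were higher than with 6N without the block and 17 with it, against none and 3 in the comparison with 10CA, where 1 was lower with the block. CYP7A1 was higher than with 10CA (0.54, adjusted p 0.03) and at 0.04 against 6N (0.89).

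**Figure D5:**
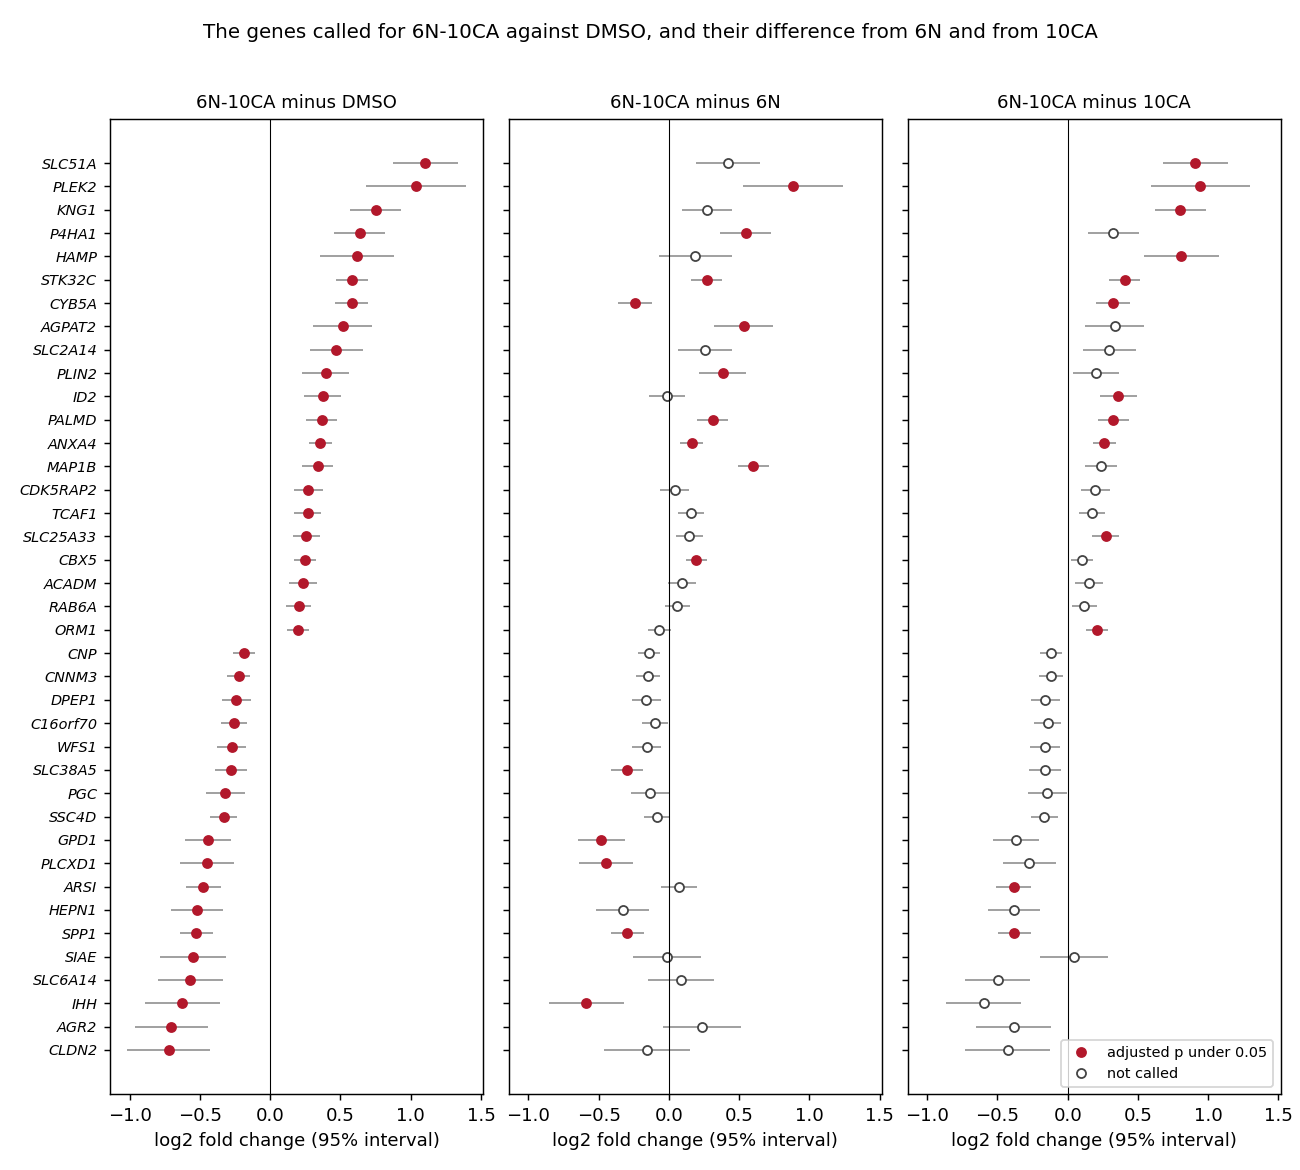
Log2 fold change with its 95% interval (x axis) of the 39 genes called for 6N-10CA against DMSO (rows), as the difference from DMSO, from 6N and from 10CA; filled points have an adjusted p under 0.05 in that comparison. The 15 filled points against 6N and 13 against 10CA share only some genes, with PLEK2, STK32C, PALMD, ANXA4, CYB5A and SPP1 filled in all 3 panels.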

How the data were processed

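RNA of HepG2 cells was lysed in RLT buffer and, per the labels' protocols, turned into amplified cDNA, made into libraries with a Nextera XT kit and read as 100-base single reads. The authors deposited 1 table of raw counts per gene for all 18 libraries; GRCh38 and DESeq2 are named in the authors' processing, per the submitters' processing notes. The sources used here do not give the aligner, counter, annotation or strand setting. The table has 35238 symbols, 24982 with a count, 28 of them turned into dates by spreadsheet software (22 tested, never named). No other per-sample columns were left out.

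Genes passing edgeR's filterByExpr (minimum count 10, total 15) were kept, 14797 with 99.96% of counts. All 18 libraries entered 1 fit with a mean per group, TMM scaling and edgeR 4.0.16's quasi-likelihood test (R 4.3.3), two-sided, Benjamini-Hochberg adjustment over all tested genes, threshold 0.05. The coefficient of variation between replicates was 6.96%, and the median half-width of the 95% interval of a log2 fold change was 0.15 over 10703 genes above 5 CPM (0.12 with the block). Each pair of replicates in the DMSO and 6N-10CA groups differed by more than sampling noise (chi-square 5.05 to 14.2 per gene), so none was counted as a copy. Floors of 3 counts cover counting error only, since cDNA was amplified and no molecular identifiers are named, reads are not independent molecules.

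To check whether replicate numbers pair the libraries, deviations from the group means were correlated between DMSO and 6N-10CA. The correlation for numbers 1, 2 and 3 was 0.096, 0.14 and 0.07 over all tested genes and 0.33, 0.41 and 0.18 over genes above 5 CPM, and at most 0.0072 and 0.014 between different numbers. Deviations within a group cancel out, so positive values for the same number push those between different numbers down. The contrast between them is therefore partly fixed by the method. The numbers were treated as pairing on the latter, a gene set chosen with the calls known; the labels do not say what a number stands for.

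The comparison, gene lists, motifs and alternatives were chosen with earlier results of these data known, so list counts are descriptions beside the share of all genes, with no test of a list. Named genes are every gene called without the block at 1 CPM or more, with values by library for the 10 largest rises and falls; the 8 largest rises and falls called with the block alone and without overlap of libraries; in each list the called members and up to 4 called with the block alone; and NR5A2. Other list members in the text were chosen after their values were seen, and some list members are not reported here. Positions are from GENCODE 29 on GRCh38, matched by symbol for 94.1% of tested genes, and promoters from RefSeq on GRCh38.p14. Alternatives were the block, DESeq2 size factors, no filter, DESeq2 1.42.0, only the compared groups, leaving out each library and the other vehicle; the block with ethanol or without a replicate number was added after seeing the data. Scripts were tested on simulated data.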

Additional observations from a re-analysis of the deposited data

How the results depend on the processing

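Against DMSO the 39 calls became 562 with the replicate block, 126 with no filter on low counts, 174 with DESeq2, 13 with only the 2 groups in the fit and 277 with those groups and the block. They were 12 to 23 with 1 library left out, 63 with ethanol as the vehicle (23 higher, 40 lower), 129 with both vehicles averaged (51 higher, 78 lower) and 605 with ethanol and the block, and 269, 113 and 190 with the block without replicate number 1, 2 and 3. The share of higher calls was 53.8% against DMSO, 36.5% against ethanol and 39.5% against both. Against 6N the 242 became 1231 with the block, 403 with no filter, 501 with DESeq2, 109 with only 2 groups, 1019 with those and the block, and 138 to 235 with 1 library left out. Against 10CA the 34 became 349, 154, 113, 10 and 870 in the same order, and 14 to 28. DESeq2 size factors gave 40, 250 and 34. Fits without a library assume that the remaining ones vary like the other groups; the cause of these changes was not tested.

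Of the 39 genes, all kept their call with the block, with DESeq2 size factors and with DESeq2, 36 with no filter, 12 with only 2 groups, 12 to 22 with 1 library left out, 36 against both vehicles and 25 against ethanol, which kept 11 of 21 rises and 14 of 18 falls. No sign turned in any of the 18 alternatives. The 9 genes that kept every call are those named in the report. At 28988419 counts and more, the median half-width of the 95% interval of a log2 fold change was 0.15 over genes above 5 CPM, and intervals were wider at low levels (CLDN2, at about 5 CPM with DMSO, -1.02 to -0.43).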

Other observations

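In several other gene groups few members were called between 6N-10CA and DMSO. Apart from SPP1 no member was called without the block, and the values with it are read against 1.68% higher and 2.12% lower over all tested genes. Of 34 measured cell cycle genes 1 was lower (PLK1, log2 fold change -0.11; adjusted p 0.283, and 0.0277 with the block), with a median of -0.01. Of 20 p53 targets 2 were lower, PHLDA3 (-0.22; 0.46, and 0.0208) and the death receptor gene TNFRSF10B (-0.13; 0.604, and 0.0367). Of 19 NRF2 targets, AKR1B10 (-0.43; 0.297, and 0.000239) and NQO1 (-0.11; 0.265, and 0.0328) were lower and OSGIN1 higher (0.31; 0.23, and 0.00662). Of 26 ATF4 targets, SLC7A5 (0.14; 0.309, and 0.019) and DDIT4 (0.33; 0.0986, and 0.00639) were higher and SLC1A5 was lower.

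Of 16 glucose metabolism genes, the gluconeogenic enzyme genes PCK1 and G6PC carried opposite signs (G6PC -0.46; adjusted p 0.6, and 0.00597 with the block). Of 27 nuclear receptor genes NR0B2 was higher and NR2F1 lower (-0.38; 0.125, and 0.0346), and of 13 LXR targets PLTP was higher. Of 11 glucocorticoid-responsive genes, MT2A was at 0.19 (0.599, and 0.0403) and SGK1 at -0.44 (0.163, and 0.0474). Of 15 NF-kB and inflammatory genes 13 had a negative log2 fold change and UBD was lower (-0.41; 0.11, and 0.000295), and of 13 mitochondrial mRNAs 12 were negative and MT-ND2 was lower (-0.13; 0.578, and 0.0305). With 1 library left out and no block, 8 to 13 of the 15 and 6 to 12 of the 13 were negative. The fewest were without 6N-10CA replicate 2 and without DMSO replicate 1, respectively. Of all 14797 tested genes, 7366 had a negative log2 fold change. Of 20 matrix, YAP and SRF targets, SPP1 was lower without the block and THBS1 with it (-0.27; 0.482, and 0.0305). Of 16 hepatocyte markers, CEBPA (0.15; 0.694, and 0.026) and TF were higher with the block, and LYZ, of 9 measured stromal, endothelial and blood markers, was at -0.18 (0.413, and 0.0343).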
